A study of Mus musculus with 8 samples.

Results

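The 8 genes described here encode the receptors for steroid and thyroid hormones and the estrogen-related receptors of the mouse liver: the glucocorticoid receptor Nr3c1, the mineralocorticoid receptor Nr3c2, estrogen receptor alpha Esr1, the thyroid hormone receptors Thra and Thrb, and the estrogen-related receptors Esrra, Esrrb and Esrrg. They were taken by gene name from a deposited table of 28073 genes, and all 8 were found and had enough reads to be tested. Livers of 21 to 22 week old C57BL/6 mice, a common inbred strain, were used for RNA sequencing: 4 mice were on a high-fat diet and 4 on a low-fat control diet. The length of feeding, the sex of the mice and the time of day of collection are not given in the labels, and no batch is named. The series asks which hepatic nuclear receptors, and which of their targets, differ on the high-fat diet.

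All 8 proteins are nuclear receptors, transcription factors that bind DNA through a zinc finger domain and, in most of them, are switched by a small lipid-soluble ligand. The glucocorticoid and mineralocorticoid receptors wait in the cytoplasm in a chaperone complex until corticosteroid binds, whereas the thyroid hormone receptors sit on DNA with a retinoid X receptor and repress or activate according to hormone. The estrogen-related receptors have no known natural hormone and depend on coactivators, above all PGC-1 alpha, to drive genes of mitochondrial energy metabolism. In liver the glucocorticoid receptor is known for gluconeogenesis and amino acid breakdown, and the thyroid hormone receptors for cholesterol and fatty acid turnover.

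Each library held 26643020 to 30013106 counts. Levels are in CPM, read counts made comparable between libraries with TMM factors, and 1 count stood for 0.0338 to 0.0388 CPM. Over 14088 tested genes edgeR's quasi-likelihood test called 9.61% at a Benjamini-Hochberg adjusted p of 0.05, of which 3.75% were higher and 5.86% lower in high-fat livers. Of 6 hepatocyte markers 2 fell, Cps1 and Serpina1c, and their summed level ran from 59040 to 62540 CPM in high-fat livers and from 71080 to 104100 CPM in control livers. At an unadjusted p under 0.05, 5 of the 6 were lower in high-fat livers (Alb, Apoa1, Cps1, Serpina1c and Ttr). The sixth, Cyp2e1, went the other way. It had 5286 ± 144 CPM in high-fat livers and 4072 ± 1073 CPM in control livers (SD, n = 4 each, edgeR adjusted p = 0.213). Most of the sum was Alb, at 39225 to 40855 CPM in high-fat livers and 40443 to 77965 CPM in control livers. Alb overlapped between the diets and was not called (edgeR adjusted p = 0.151). In bulk liver, fewer cells of a type and less RNA per cell cannot be told apart. No tested marker of macrophages, stellate cells, endothelium, bile duct or lymphocytes was called by edgeR; at an unadjusted p under 0.05 there were 0, 2, 1, 1 and 0 of them. Adiponectin, Adipoq, an adipocyte hormone, was counted 42 times in control replicate 1 and 32 times in control replicate 4, and at most 10 times in any other liver. Results are also given without those 2 livers where that changes a call. The adipocyte marker Cfd rose, and the summed level of 5 adipocyte markers ran from 18.7 to 74.3 CPM in high-fat livers and from 0.111 to 5.36 CPM in control livers. Nearly all of that sum in high-fat livers was Cfd, at 18.5 to 74.0 CPM. The other 4 markers, too low to test, had lower means in high-fat livers: Adipoq 0.151 and 0.700 CPM, Plin1 0.099 and 0.531 CPM, Lep 0.045 and 0.159 CPM, and Retn 0.114 and 0.213 CPM in high-fat and control livers. The part of these cells in the values below was not tested.

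The receptors and the gene lists used further on were chosen with earlier results of these data known. Some genes stand in more than 1 list. Shares of called genes are therefore given as descriptions beside the share of all genes. Of the 8 receptors 1 was called, Esrra, which was lower on the high-fat diet. That is 12.5% of them, against 9.61% of all genes, so the count by itself does not set the receptors apart from the rest of the transcriptome. Their median log2 fold change (high-fat over control) was -0.145, against 0.0069 for all tested genes, and 2 of the 8, Esr1 and Esrrg, had a positive one. In TMM-scaled CPM, high-fat and control livers did not overlap for Esrra, Esrrg and Nr3c1, 3 of the 8. Among all genes 17.3% had no overlap (7.28% higher and 9.97% lower). Esrrg was higher in every high-fat liver than in any control liver but missed the threshold. With TMM scaling and all 8 livers, no receptor was called higher by edgeR or limma-voom. Esrrg was called higher by DESeq2, and it was the 1 that was higher at an unadjusted edgeR p under 0.05.

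**Figure D1:**
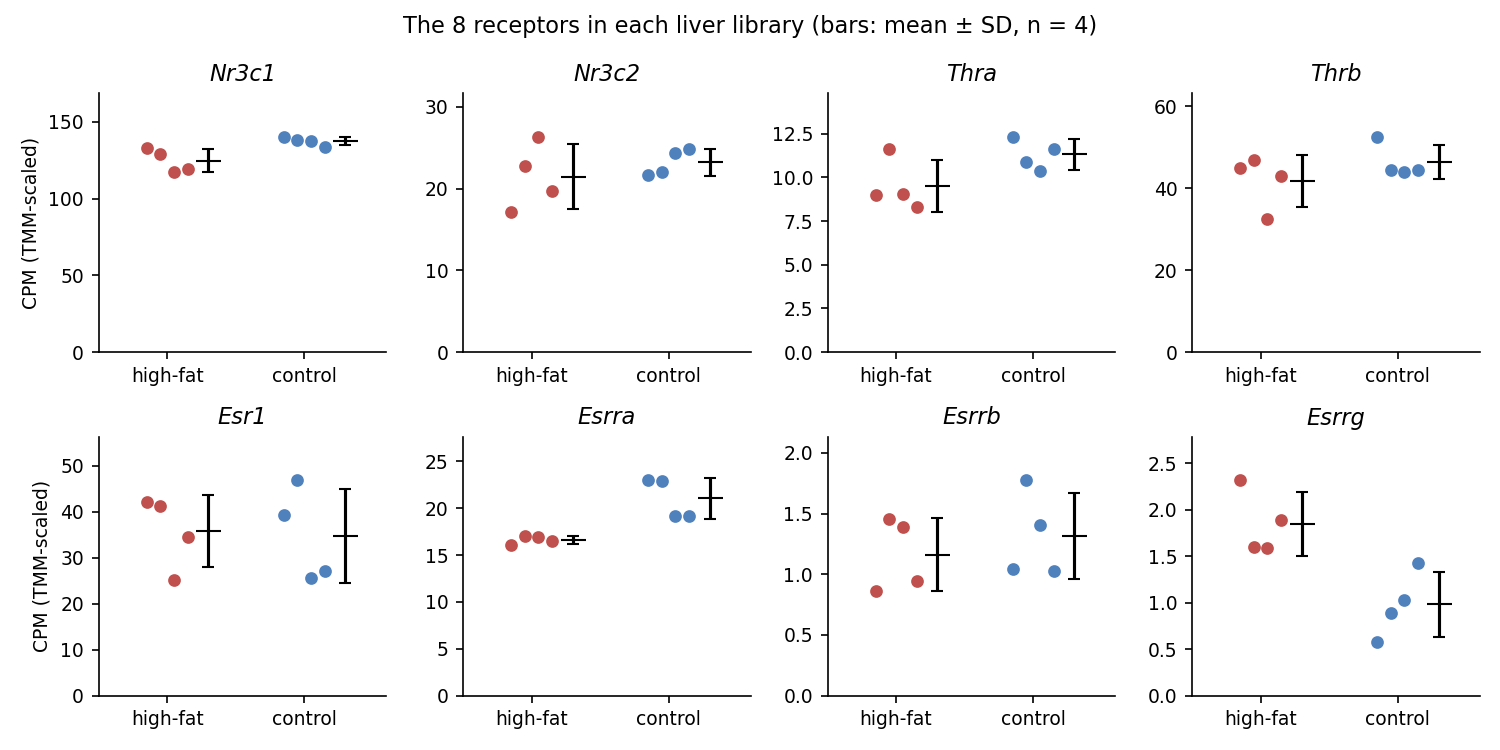
Level of each receptor in CPM on TMM-scaled library sizes, 1 point per liver, high-fat diet left and control diet right in each panel, with the mean and SD over 4 livers beside the points. The 2 groups are separate in the panels of Nr3c1, Esrra and Esrrg and overlap in the other panels; each vertical axis starts at 0 and has its own scale.

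To compare levels between genes, CPM were divided by the kilobases of exon of each gene. Nr3c1 was far above the others, at 16.2 ± 0.984 CPM per kb in high-fat livers and 17.9 ± 0.363 in control livers (SD, n = 4 each), 47.5% and 47.2% of the sum over the 8 receptors. Thrb followed with 5.65 ± 0.862 and 6.26 ± 0.563 CPM per kb, and Esrra with 3.80 ± 0.101 and 4.80 ± 0.498 CPM per kb, in high-fat and control livers. The order Nr3c1, Thrb, Esrra held in all 4 livers of each diet.

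The middle of the order was less settled. Nr3c2 lay below Esrra in 3 of 4 high-fat livers and in 4 of 4 control livers, at means of 3.32 ± 0.614 and 3.59 ± 0.254 CPM per kb in high-fat and control livers. Esr1, at 2.62 ± 0.571 and 2.54 ± 0.747 CPM per kb, was below Nr3c2 in 3 of 4 livers of each diet, and Thra, at 2.06 ± 0.319 and 2.45 ± 0.188, was below Esr1 in 3 of 4 high-fat and 2 of 4 control livers. Nr3c2 and Esr1, and Esr1 and Thra, were therefore not separated beyond the spread between livers. In CPM without scaling by length, Esr1 had means of 35.8 and 34.7 in high-fat and control livers. That was above Nr3c2 (21.5 and 23.2) and Esrra (16.7 and 21.1). The place of Esr1 below these receptors thus depends on the exon length used.

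Esrrb and Esrrg were more than an order of magnitude below Thrb. Esrrb had 0.192 ± 0.0497 CPM per kb in high-fat livers and 0.217 ± 0.0587 in control livers, and Esrrg 0.298 ± 0.0553 and 0.158 ± 0.0564. Esrrb was the higher of this pair in 0 of 4 high-fat livers and in 3 of 4 control livers. Esrrg made up 0.871% of the summed level of the 8 receptors in high-fat livers and 0.417% in control livers.

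**Figure D2:**
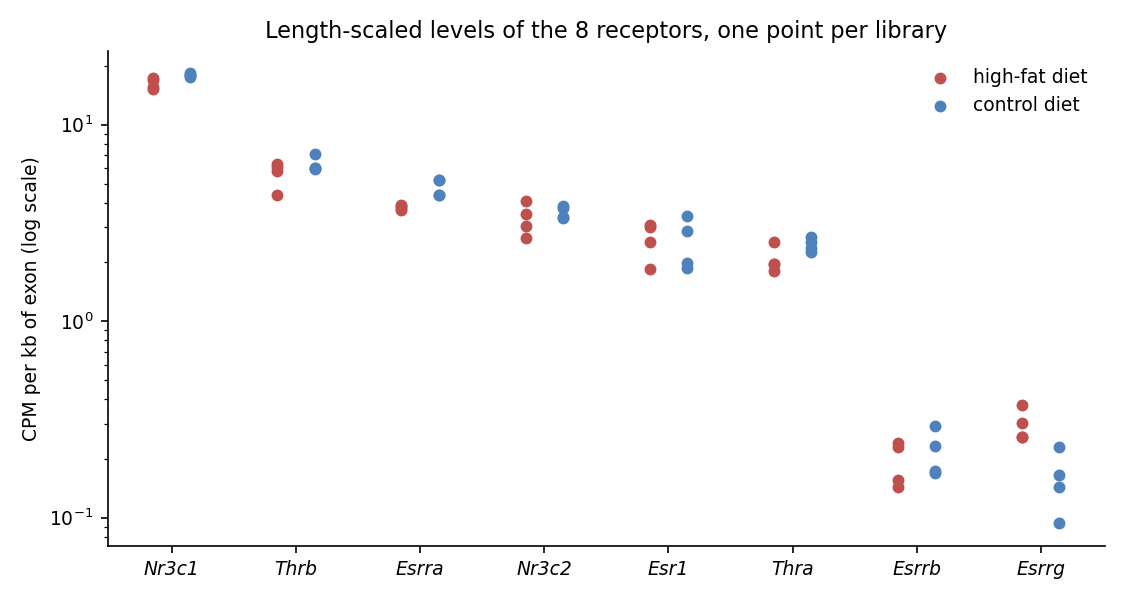
Length-scaled level of each receptor in CPM per kb of exon on a log axis, 1 point per liver, high-fat diet left and control diet right of each gene, ordered by the control mean. Nr3c1 stands at 15.3 to 17.3 in high-fat and 17.4 to 18.3 in control livers, and Esrrb and Esrrg lie below 0.4 in every liver.

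Nr3c1 binds cortisol or, in mice, corticosterone. It lies on chromosome 18, 39410545 to 39491301, minus strand (mm10, ENSMUSG00000024431.14). It had 133, 129, 117 and 119 CPM in high-fat livers, against 140, 138, 138 and 134 CPM in control livers. The highest high-fat liver was just below the lowest control liver, and the controls were tightly grouped. The log2 fold change was -0.14 ± 0.061 (SE), with a 95% interval of -0.28 to -0.0038 and an edgeR adjusted p = 0.188, so the gene was not called. With scaling by library totals alone the median over all genes stood at 0.10 and the value of Nr3c1 at -0.047 (both log2 fold changes). High-fat replicate 1 had 3844 counts of Nr3c1 in a total of 28312523. Control replicate 4 had fewer, 3658, in a larger total of 28682448. Per library total the groups of Nr3c1 therefore overlapped, and their separation in CPM depends on the TMM factors.

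Nr3c2 binds aldosterone and also corticosterone with high affinity. It lies on chromosome 8, 76899442 to 77245012, plus strand (ENSMUSG00000031618.13). Its levels were 17.1, 22.7, 26.4 and 19.7 CPM in high-fat livers and 21.7, 22.0, 24.4 and 24.9 CPM in control livers. The control values fell inside the range of the high-fat values. Its log2 fold change was -0.11 ± 0.12 (95% interval -0.39 to 0.17, edgeR adjusted p = 0.625). The log2 ratio of Nr3c2 to Nr3c1 counts within a library, which no scaling factor can alter, was -2.55 ± 0.329 in high-fat livers and -2.57 ± 0.127 in control livers (exact two-sided permutation p = 0.914, n = 4 each; adjusted over 3 ratios 0.914).

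Transcripts of Hsd11b1 and H6pd, which act in regenerating the ligand of Nr3c1 inside hepatocytes, were lower. No hormone level is part of these data. Hsd11b1, which regenerates active glucocorticoid inside hepatocytes, had 279, 269, 252 and 294 CPM in high-fat livers, against 402, 380, 517 and 393 CPM in control livers. Every high-fat liver was below every control liver, and the call (log2 fold change -0.63 ± 0.11, edgeR adjusted p = 0.00834) held in all 17 alternative settings. H6pd, which makes the NADPH that Hsd11b1 uses in the endoplasmic reticulum, had 467, 415, 422 and 397 CPM in high-fat livers and 599, 547, 626 and 490 CPM in control livers. It fell as well, without overlap (-0.41 ± 0.093, edgeR adjusted p = 0.0246).

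The call of H6pd rested on most libraries: it was lost without high-fat replicate 2, 3 or 4 or control replicate 1 or 2, with edgeR adjusted p up to 0.0791, and with library totals alone, where the log2 fold change was -0.32. Akr1d1, the 5-beta-reductase that inactivates steroid hormones and also works in bile acid synthesis, fell to 135 ± 5.21 CPM in high-fat livers, against 217 ± 19.5 CPM in control livers (-0.69 ± 0.075, edgeR adjusted p = 0.00174), and was called in all 17 alternatives. Serpina6, the plasma carrier of corticosteroids, had 101 ± 10.2 CPM in high-fat livers and 94.3 ± 19.8 CPM in control livers (0.11 ± 0.14, edgeR adjusted p = 0.692). Srd5a1, a 5-alpha-reductase of steroids, had 103 ± 12.9 and 121 ± 14.0 CPM in high-fat and control livers (-0.23 ± 0.11, edgeR adjusted p = 0.225).

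Of the chaperones that hold the receptor ready for hormone, the HSP90 gene Hsp90ab1 had 839 ± 132 CPM in high-fat livers and 751 ± 84.4 CPM in control livers (edgeR adjusted p = 0.482), and Hsp90aa1 320 ± 73.0 and 288 ± 72.7 CPM (edgeR adjusted p = 0.694). Fkbp5, a cochaperone that lowers the receptor's affinity for hormone and is itself induced by glucocorticoid, behaved otherwise. It had 22.7, 45.9, 38.5 and 50.6 CPM in high-fat livers, against 15.6, 16.6, 17.0 and 18.2 CPM in control livers. Fkbp5 rose without overlap (1.23 ± 0.21, edgeR adjusted p = 0.00854). Without control replicates 1 and 4 its log2 fold change was 1.22 and its edgeR adjusted p = 0.0551 whereas it stayed between 0.00277 and 0.0292 with any 1 library left out.

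The 20 known glucocorticoid-responsive genes, all of them tested, moved in both directions. Of these 1 rose, 5 fell and 14 were not called, which is 30.0% called against 9.61% of all genes, with a median log2 fold change of -0.19 against 0.0069. Besides the rise of Fkbp5, falls were called for Errfi1, a feedback inhibitor of EGF receptor signalling (-0.60 ± 0.10, edgeR adjusted p = 0.00854), Dusp1, a MAP kinase phosphatase (-0.93 ± 0.20, edgeR adjusted p = 0.0207), and G6pc, the last enzyme of glucose production (-1.31 ± 0.30, edgeR adjusted p = 0.0241). The other 2 falls, named after their values were seen, were Ddit4, an inhibitor of mTORC1 (-1.20 ± 0.30, edgeR adjusted p = 0.0366), and the tyrosine aminotransferase Tat (-0.91 ± 0.24, edgeR adjusted p = 0.0436).

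Several standard glucocorticoid reporters were among the uncalled genes. Tsc22d3, or GILZ, had 178 ± 43.9 CPM in high-fat livers and 203 ± 64.8 CPM in control livers (-0.19 ± 0.25, edgeR adjusted p = 0.685). Pck1, an enzyme of glucose production like G6pc and also in the thyroid hormone list, was not called either. It had 1972 ± 480 and 2228 ± 269 CPM in high-fat and control livers (-0.18 ± 0.17, edgeR adjusted p = 0.583). Per1, also a clock gene, had 8.99 ± 0.781 and 7.67 ± 1.26 CPM in high-fat and control livers (edgeR adjusted p = 0.308), and the kinase gene Sgk1 21.6 ± 5.97 and 41.9 ± 19.6 CPM (-0.96 ± 0.32, edgeR adjusted p = 0.0960). Sgk1 passed as lower with DESeq2 (adjusted p = 0.0187), without a low-count filter and without control replicate 4. Without high-fat replicate 1, 2, 3 or 4 or control replicate 2 only 2 or 3 genes of the list fell. Errfi1 kept its call in every alternative, Dusp1 lost it without high-fat replicate 2 or control replicate 2, and G6pc without high-fat replicate 2, 3 or 4. Without control replicates 1 and 4 together Fkbp5, G6pc (-1.45) and Tat (-0.77) were not called. Ddit4 lost it in 7 (all but that without control replicate 4), as well as with limma-voom (-1.06, adjusted p = 0.104), and Tat in 5 (high-fat replicate 1 or 4, control replicate 1, 2 or 4) of the 8 fits with 1 library left out. Without control replicate 3 the rises numbered 3, and without high-fat replicate 1 they numbered 2.

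**Figure D3:**
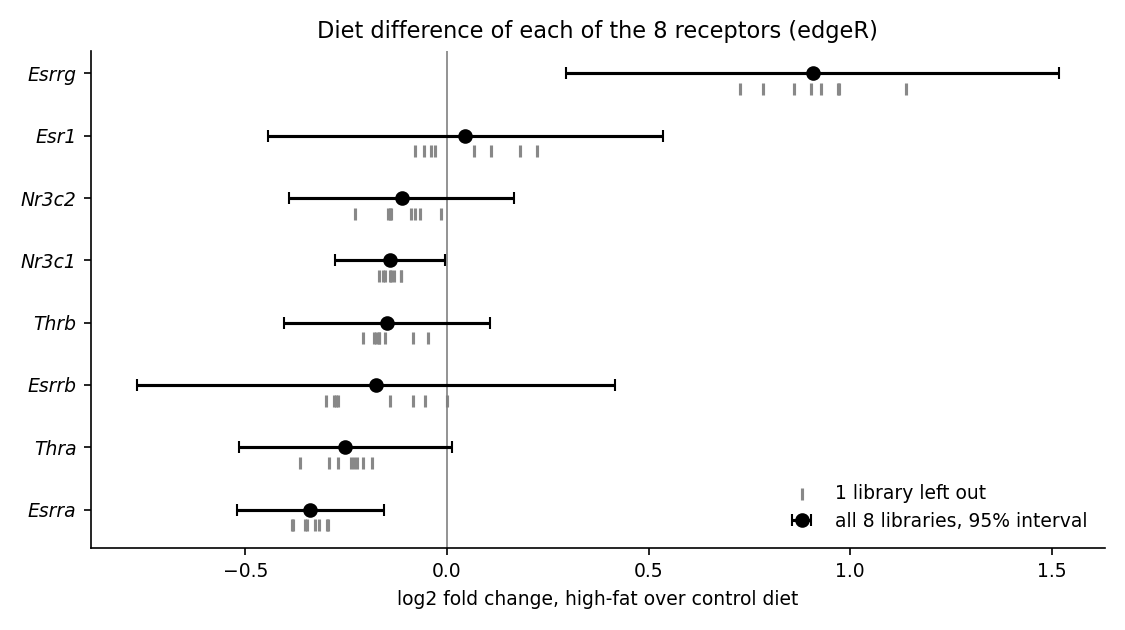
Log2 fold change of each receptor, high-fat over control diet, from edgeR: black points with 95% intervals use all 8 livers, and grey ticks below them are the 8 fits with 1 liver left out. The intervals of Esrra, Nr3c1 and Esrrg do not reach 0 before adjustment over all genes, and ticks of Esr1 and Esrrb lie on both sides of 0.

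Thrb is the main thyroid hormone receptor of hepatocytes. It lies on chromosome 14, 17660960 to 18038088, plus strand (ENSMUSG00000021779.16). Its levels were 45.0, 46.8, 32.5 and 43.0 CPM in high-fat livers and 52.6, 44.5, 43.9 and 44.4 CPM in control livers. The groups overlapped, with control replicate 1 above and high-fat replicate 3 below the rest. The log2 fold change was -0.15 ± 0.11 (95% interval -0.40 to 0.11, edgeR adjusted p = 0.463). It was -0.084 without control replicate 1 and -0.047 without high-fat replicate 3.

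Thra, the receptor that prevails in heart and brain, lies on chromosome 11, 98740638 to 98769006, plus strand (ENSMUSG00000058756.13). It had 8.996, 11.7, 9.03 and 8.32 CPM in high-fat livers and 12.3, 10.9, 10.4 and 11.7 CPM in control livers. High-fat replicate 2 lay among the controls and the other high-fat livers below them all. The log2 fold change was -0.25 ± 0.12 (95% interval -0.52 to 0.013, edgeR adjusted p = 0.223), and -0.37 without high-fat replicate 2 (edgeR adjusted p = 0.0717, in a range of 0.0717 to 0.568 over its alternatives). The log2 ratio of Thrb to Thra counts was 2.13 ± 0.251 in high-fat livers and 2.03 ± 0.0738 in control livers (exact two-sided permutation p = 0.457, n = 4 each; adjusted over 3 ratios 0.686).

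The end of Thra overlaps the end of Nr1d1, the gene of the clock repressor REV-ERB alpha, on the opposite strand. The overlap is 1075 bases in the table's coordinates, 263 of them in exons of both genes, and the strand setting of the counting is not given in the sources used here. Nr1d1 had 11.2, 19.2, 20.2 and 18.3 CPM in high-fat livers, against 3.03, 1.18, 2.74 and 7.20 CPM in control livers, a rise (2.28 ± 0.43, edgeR adjusted p = 0.0121) where the value of Thra was negative. The splice variant of Thra that does not bind hormone ends in this region, and gene counts do not separate it from the receptor proper. Of 16 clock genes, a list also chosen with earlier results known, 7 rose and 3 fell, which is 62.5% called against 9.61% of all genes. Among the rises were Dbp, a clock output factor (3.75 ± 0.41), Ciart, a clock repressor (2.70 ± 0.32), Per3 (2.24 ± 0.29) and Tef (1.35 ± 0.19), with edgeR adjusted p from 0.00173 to 0.00429. The part of collection time in any receptor's value was not tested. Without high-fat replicate 2 or control replicate 1 or 2 the clock falls numbered 1.

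Among genes that handle thyroid hormone, Dio1 rose. Dio1, the deiodinase that converts thyroxine to active triiodothyronine and also degrades it, had 243, 236, 218 and 198 CPM in high-fat livers, against 115, 124, 82.1 and 136 CPM in control livers. The lowest high-fat liver was well above the highest control liver, and the rise (0.97 ± 0.14, edgeR adjusted p = 0.00535) was called in all 17 alternatives. Slc16a10, which transports thyroid hormone and aromatic amino acids, had 96.1 ± 13.6 and 103 ± 17.7 CPM in high-fat and control livers (edgeR adjusted p = 0.715).

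The genes of thyroid hormone carriers in blood were not called. Serpina7, thyroxine-binding globulin, had 147, 178, 230 and 206 CPM in high-fat livers and 79.7, 87.9, 153 and 39.8 CPM in control livers. Only control replicate 3 reached the high-fat range, and the log2 fold change was 1.08 ± 0.33 (edgeR adjusted p = 0.0747). Without that library it was 1.46 and passed (edgeR adjusted p = 0.0122, the lowest of its fits with 1 library left out, of which the highest was 0.177). It also passed with DESeq2 (adjusted p = 0.0471) and without a low-count filter (edgeR adjusted p = 0.0230). Ttr, transthyretin, had 5143 ± 375 and 6596 ± 306 CPM in high-fat and control livers (-0.36 ± 0.10, edgeR adjusted p = 0.0541). It passed without control replicate 4, with DESeq2, with limma-voom and without a low-count filter, in the last 3 with adjusted p = 3.89e-05, 0.0418 and 0.0471.

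Of 12 genes known to respond to thyroid hormone in liver, all tested, 2 rose, 1 fell and 9 were not called, which is 25% called against 9.61% of all genes. Dio1 counts among them as well, being a direct target, and the other rise was Hr, a corepressor of the thyroid hormone receptor. Hr had 6.16, 5.49, 5.52 and 7.77 CPM in high-fat livers, against 2.64, 3.26, 2.02 and 1.46 CPM in control livers, with no overlap (1.41 ± 0.23, edgeR adjusted p = 0.00777, called in all 17 alternatives). The fall was that of G6pc, which also stands in the glucocorticoid list. Thrsp, a lipogenic protein that is the classic hepatic reporter of the hormone, had 673 ± 156 CPM in high-fat livers and 793 ± 176 CPM in control livers (-0.24 ± 0.20, edgeR adjusted p = 0.510). The malic enzyme gene Me1, another classic reporter, had 346 ± 92.2 and 338 ± 93.0 CPM (0.037 ± 0.23, edgeR adjusted p = 0.938), and Klf9, a target of both thyroid hormone and glucocorticoid, 96.7 ± 13.5 and 110 ± 23.1 CPM (edgeR adjusted p = 0.488). The median of the 12 was -0.070, and 4 rose without control replicate 3.

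Of all 17 genes of ligand supply and hormone carriage 12 were tested, of which 2 rose, 4 fell and 6 were not called, which is 50% called against 9.61% of all genes. Dio1 was among the rises, and the falls were those of Hsd11b1, H6pd, Akr1d1 and Hsd17b2, which act on steroids or supply the cofactor for it. Without high-fat replicate 2 or 3 or control replicate 1 or 2 the falls numbered 2.

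**Figure D4:**
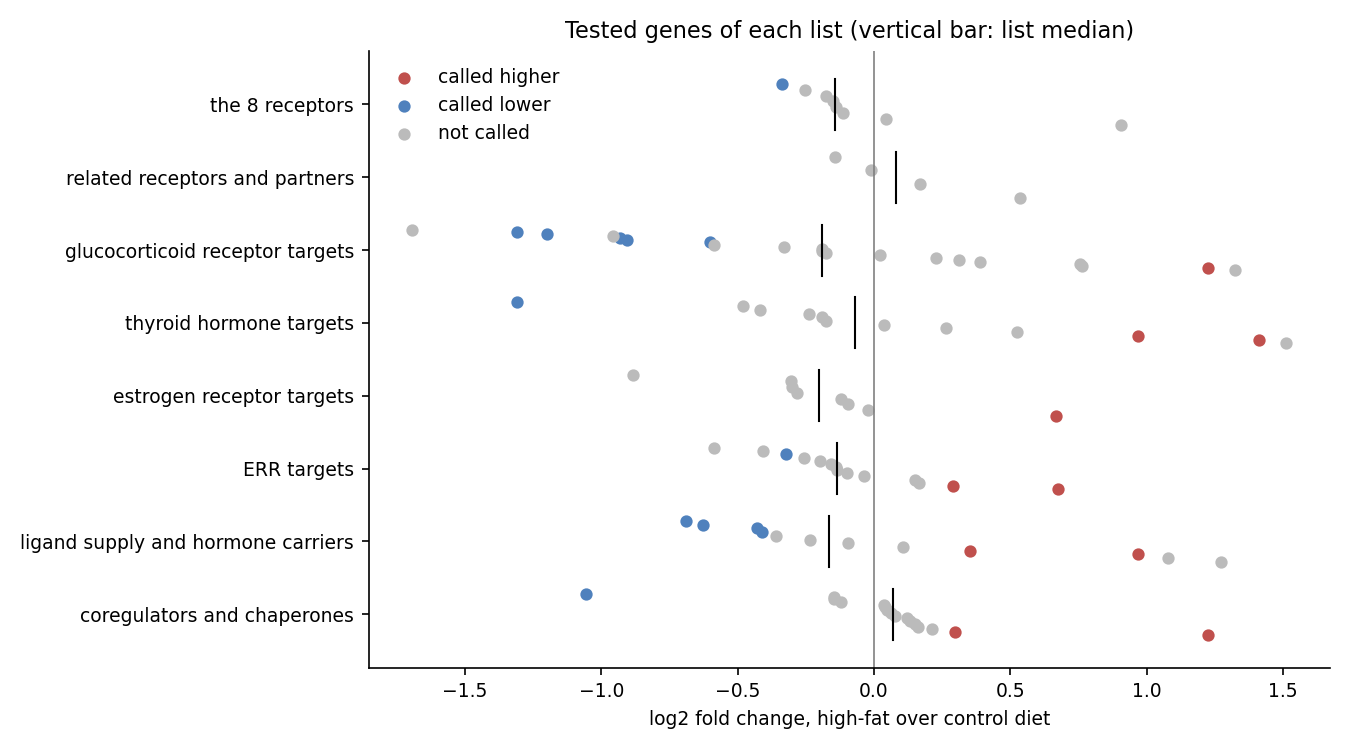
Log2 fold change, high-fat over control diet, of each tested gene in 8 lists; red points were called higher and blue points lower by edgeR, grey points were not called, and vertical bars are list medians. In the list of ligand supply 2 of 12 genes are red and 4 blue, and among the 8 receptors only Esrra is coloured.

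Esr1, the estrogen receptor of hepatocytes, lies on chromosome 10, 4611593 to 5005614, plus strand (ENSMUSG00000019768.16). It had 42.1, 41.2, 25.2 and 34.6 CPM in high-fat livers and 39.3, 46.9, 25.5 and 27.1 CPM in control livers. Each diet had livers near 25 and livers above 39 CPM, the widest relative spread among the 6 more abundant receptors. The difference was 0.045 ± 0.22 on the log2 scale, with a 95% interval of -0.44 to 0.53 (edgeR adjusted p = 0.922), so the data leave room for a change in either direction. Its sign turned in 5 of 17 alternatives.

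Estrogen receptor beta, Esr2, and the progesterone receptor, Pgr, were too low to test. Esr2 was counted 2, 2, 1 and 0 times in high-fat livers and 1 time in each control liver, and Pgr 0, 0, 3 and 1 times in high-fat livers and 0, 0, 0 and 1 times in control livers. Hsd17b2, which inactivates estradiol and testosterone, fell to 138 ± 17.4 CPM in high-fat livers, against 186 ± 15.7 CPM in control livers (-0.43 ± 0.10, edgeR adjusted p = 0.0285). That call was lost without high-fat replicate 2 or 3, without control replicate 1 or 2, and without control replicates 1 and 4 together (-0.36, edgeR adjusted p = 0.140, the highest of its alternatives).

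Of 12 estrogen targets known from human breast cancer cells 8 were tested, of which 1 rose and 0 fell (1, Xbp1, was lower at an unadjusted p under 0.05). That is 12.5% called, near the 9.61% of all genes. The rise was that of the cyclin D1 gene Ccnd1, with 50.2 ± 10.3 CPM in high-fat livers and 31.6 ± 7.16 CPM in control livers (0.67 ± 0.18, edgeR adjusted p = 0.0475). The call held in 1 of the 8 fits with 1 library left out, that without control replicate 2. Without control replicates 1 and 4 together the log2 fold change of Ccnd1 was 0.43 (edgeR adjusted p = 0.220, the highest of its alternatives). The stress factor gene Xbp1 had 192 ± 15.4 and 237 ± 31.0 CPM in high-fat and control livers (-0.30 ± 0.10, edgeR adjusted p = 0.0909), and passed with DESeq2 (adjusted p = 0.0407). Ctsd, the protease cathepsin D, had 470 ± 47.9 and 478 ± 42.0 CPM (edgeR adjusted p = 0.911). The median log2 fold change of the 8 tested genes was -0.20.

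Esrra is the estrogen-related receptor most expressed here. It was the only one of the 8 receptors that edgeR called with TMM scaling and all 8 livers. It lies on chromosome 19, 6910977 to 6921813, minus strand (ENSMUSG00000024955.13). It had 16.1, 17.1, 16.9 and 16.5 CPM in high-fat livers, against 23.0, 22.9, 19.1 and 19.2 CPM in control livers. The high-fat livers lay within 1 CPM of each other and all below the controls, which fell into a pair near 23 and a pair near 19. The log2 fold change was -0.34 ± 0.081, with a 95% interval of -0.52 to -0.16 (edgeR adjusted p = 0.0312).

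The size of the fall was steady and its call was not. Over the 8 fits with 1 library left out the log2 fold change ran from -0.38 to -0.30, yet Esrra lost its call without any of the 4 high-fat replicates or without control replicate 1 or 2 (edgeR adjusted p from 0.0678 to 0.0801). It was also lost without control replicates 1 and 4 together (-0.34) and with library totals alone (-0.24, edgeR adjusted p = 0.0940, the highest over its alternatives, of which DESeq2 gave the lowest, 0.00679). The last 73 bases of Esrra overlap a gene of the other strand, Trmt112, which encodes a methyltransferase subunit and had a mean count equal to 83.0% of Esrra's. Trmt112 had 14.8 ± 0.810 CPM in high-fat livers and 16.4 ± 0.733 CPM in control livers (-0.15 ± 0.070, edgeR adjusted p = 0.216).

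Esrrg, which in liver is known to rise on fasting and to act on gluconeogenic genes, lies on chromosome 1, 187608791 to 188214885, plus strand (ENSMUSG00000026610.13). It was counted 67, 45, 47 and 52 times in high-fat livers, against 15, 24, 30 and 39 times in control livers. This gave 2.32, 1.59, 1.59 and 1.89 CPM in high-fat livers, against 0.582, 0.888, 1.03 and 1.43 CPM in control livers, without overlap. The log2 fold change was 0.91 ± 0.27 (95% interval 0.30 to 1.52, edgeR adjusted p = 0.0686) and missed the threshold. It passed without control replicate 4, the highest control (1.14, edgeR adjusted p = 0.0308), with library totals alone (1.001, edgeR adjusted p = 0.0427) and with DESeq2 (0.91, adjusted p = 0.0226). Over its alternatives the adjusted p ran from 0.0226 to 0.155.

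Esrrb, best known from embryonic stem cells, lies on chromosome 12, 86361117 to 86521628, plus strand (ENSMUSG00000021255.17). It had 0.865, 1.45, 1.39 and 0.944 CPM in high-fat livers and 1.05, 1.78, 1.41 and 1.02 CPM in control livers. The groups overlapped (-0.18 ± 0.26, 95% interval -0.77 to 0.42, edgeR adjusted p = 0.726). It was counted 25 to 48 times per library.

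Esrrg and Esrra are known to bind the same DNA element, and their counts were also set against each other inside each library. The log2 ratio of Esrrg to Esrra was -2.79, -3.41, -3.40 and -3.12 in high-fat livers, against -5.26, -4.66, -4.19 and -3.74 in control livers. The groups did not overlap, and the means differed by 1.29 on the log2 scale. An exact two-sided permutation test gave p = 0.0286 (n = 4 each), the smallest that 70 splits allow, and 0.0857 after adjustment over 3 ratios. At this sample size 1 ratio alone cannot pass that adjustment.

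**Figure D5:**
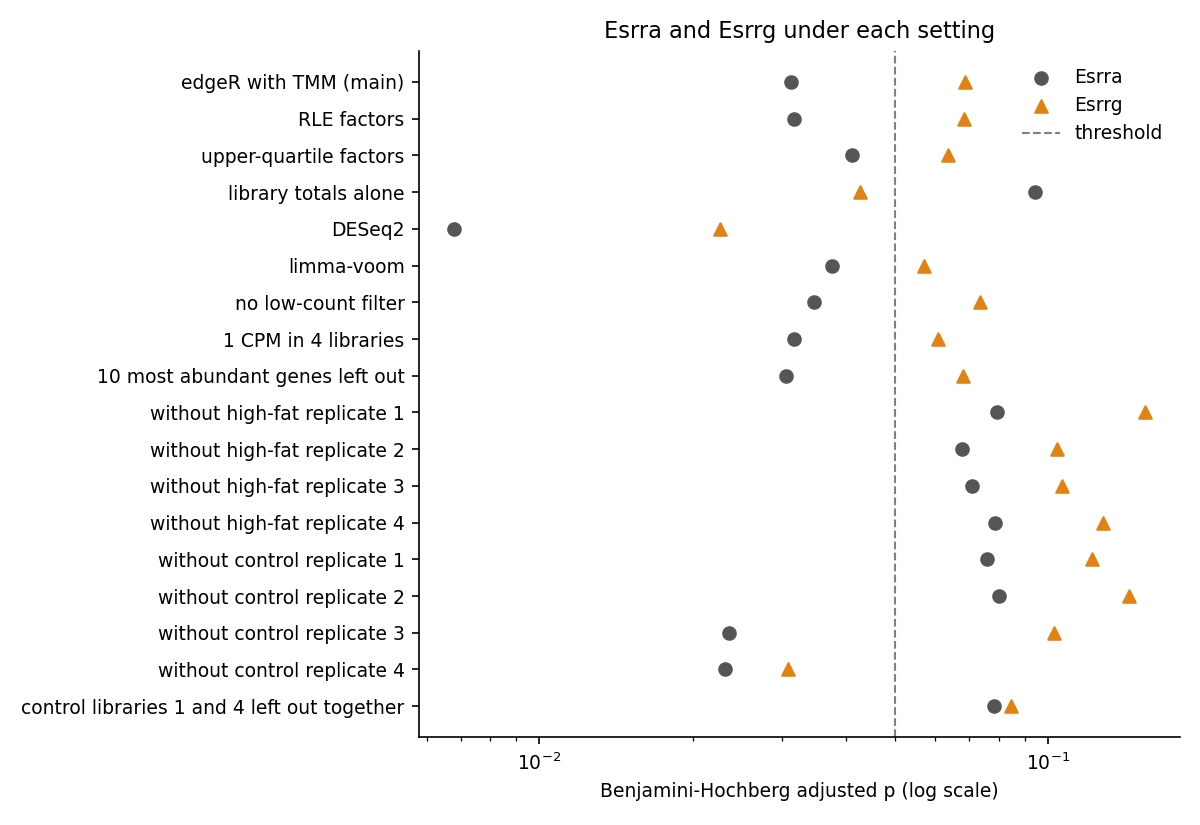
Benjamini-Hochberg adjusted p, on a log axis, of Esrra (circles) and Esrrg (triangles) under each setting, with the threshold of 0.05 dashed. Esrra passes in the edgeR result with all 8 livers and fails in 6 of the 8 fits with 1 liver left out, and Esrrg passes in 3 settings: library totals alone, DESeq2, and without control replicate 4.

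The DNA just upstream of Esrra and Esrrg is shown since these were the receptors with the most separated groups among those whose sequence is printed. Each window is the 250 bases before a RefSeq start site in GRCm38.p6, written 5′ to 3′ on the gene's strand. Capitals mark GC boxes (GGGCGG) and CCAAT boxes (CCAAT), searched on both strands. For Esrra the window is chr19:6921809-6922058 on the minus strand. For Esrrg, 2 of 4 RefSeq start sites are shown, chr1:187651991-187652240 and chr1:187997577-187997826 on the plus strand, chosen as those with no annotated Esrrg exon in the window that held a match. The windows of the first and second start sites held no match, and that of the second had no annotated Esrrg exon either.
Esrra: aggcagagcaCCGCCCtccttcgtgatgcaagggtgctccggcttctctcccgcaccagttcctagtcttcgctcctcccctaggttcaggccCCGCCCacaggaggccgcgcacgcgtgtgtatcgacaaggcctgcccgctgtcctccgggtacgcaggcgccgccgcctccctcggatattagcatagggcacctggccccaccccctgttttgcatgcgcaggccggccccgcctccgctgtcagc
Esrrg, the third start site: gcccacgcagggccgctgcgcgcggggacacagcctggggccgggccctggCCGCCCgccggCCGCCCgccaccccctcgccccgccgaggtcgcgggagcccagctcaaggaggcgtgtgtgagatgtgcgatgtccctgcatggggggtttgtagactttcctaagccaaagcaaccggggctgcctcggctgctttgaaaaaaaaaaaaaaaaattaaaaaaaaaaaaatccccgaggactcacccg
Esrrg, the fourth start site: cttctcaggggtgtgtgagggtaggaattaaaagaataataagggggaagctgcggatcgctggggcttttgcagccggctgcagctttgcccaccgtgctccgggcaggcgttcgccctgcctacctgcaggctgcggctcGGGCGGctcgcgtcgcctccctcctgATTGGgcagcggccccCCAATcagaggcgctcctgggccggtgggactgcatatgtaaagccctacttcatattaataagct

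Esrra had 2 GC boxes, at bases -240 to -235 and -157 to -152 from the start site, and no CCAAT box. The third start site of Esrrg had 2 GC boxes, and the fourth had 1 GC box and 2 CCAAT boxes. Among 32851 windows of the same length from RefSeq 32.7% held a GC box and 33.8% a CCAAT box, so these matches are common. The Esrrg windows were chosen for holding a match, so their matches cannot be weighed against these shares. The element bound by estrogen-related receptors was searched as TNAAGGTCA, with the core AGGTCA of nuclear receptor elements contained in it. Neither was in these windows; 1.14% and 14.0% of all windows held them. The Esrra window was 68.4% G and C, against a median of 52.4%. Which start site of Esrrg was used in these livers cannot be read from gene counts.

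The coactivator on which the estrogen-related receptors depend was lower too. Ppargc1a, PGC-1 alpha, had 4.67, 5.46, 4.64 and 3.92 CPM in high-fat livers, against 8.50, 10.1, 13.0 and 7.27 CPM in control livers. The groups did not overlap, and the fall (-1.06 ± 0.18, edgeR adjusted p = 0.00936) was called in all 17 alternatives. Its relative Ppargc1b had 2.70 ± 0.792 CPM in high-fat livers and 2.34 ± 0.596 CPM in control livers (0.21 ± 0.26, edgeR adjusted p = 0.662). Nrip1, a corepressor of estrogen and estrogen-related receptors, had 27.7 ± 1.22 and 30.1 ± 5.16 CPM (edgeR adjusted p = 0.540).

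Of 15 mitochondrial genes known as targets of estrogen-related receptors 14 were tested, of which 2 rose, 1 fell and 11 were not called. That is 21.4% called against 9.61% of all genes, with a median log2 fold change of -0.14 against 0.0069 for all genes. Cs, citrate synthase, had 183, 178, 180 and 183 CPM in high-fat livers, against 237, 235, 234 and 202 CPM in control livers, a fall of 0.32 ± 0.067 on the log2 scale (edgeR adjusted p = 0.0172). Acadm, the medium-chain acyl-CoA dehydrogenase, moved the other way, with 449 ± 37.3 CPM in high-fat livers and 282 ± 61.7 CPM in control livers (0.67 ± 0.15, edgeR adjusted p = 0.0202). Mfn2, a mitochondrial fusion protein, rose by 0.29 ± 0.072 (edgeR adjusted p = 0.0349). Acadm is also a known PPARA target.

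Among the uncalled genes of that list, the ATP synthase gene Atp5b had 1241 ± 61.7 CPM in high-fat livers and 1423 ± 51.8 CPM in control livers (-0.20 ± 0.076, edgeR adjusted p = 0.141), and passed with DESeq2 (adjusted p = 0.00991). The isocitrate dehydrogenase gene Idh3a had 30.6 ± 2.33 and 27.6 ± 3.02 CPM (edgeR adjusted p = 0.349), and Pdk4, a brake on pyruvate oxidation, 10.7 ± 1.73 and 16.1 ± 6.39 CPM (edgeR adjusted p = 0.226), which passed as lower without control replicate 4 (edgeR adjusted p = 0.0210). Without that library 3 genes of the list fell. Cs lost its call without high-fat replicate 2 or 4, without control replicate 2, and with library totals alone (-0.23, edgeR adjusted p = 0.0628). Acadm lost it without high-fat replicate 3 or 4, without control replicate 1 or 2, and without control replicates 1 and 4 together (0.63), and Mfn2 in 6 of the 8 fits with 1 library left out (all but those without high-fat replicate 1 or control replicate 3). Mfn2 also lost it without a low-count filter (0.28, edgeR adjusted p = 0.0601) and without control replicates 1 and 4 together (0.34, edgeR adjusted p = 0.0745).

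Of 6 related and partner receptors 4 were tested and 0 were called by edgeR, DESeq2 or limma-voom; 2 of them, Rxra included, were higher at an unadjusted edgeR p under 0.05. Rxra, the retinoid X receptor with which the thyroid hormone receptors pair, had 349, 364, 351 and 345 CPM in high-fat livers and 289, 300, 317 and 348 CPM in control livers (0.17 ± 0.073, edgeR adjusted p = 0.187). It passed with library totals alone (0.26, edgeR adjusted p = 0.0400). Of 16 coregulators and chaperones, all tested, 2 rose, 1 fell and 13 were not called, which is 18.8% called against 9.61% of all genes; the rises were of Fkbp5 and of Tbl1xr1, a subunit of the corepressor complex that thyroid hormone receptors recruit. Tbl1xr1 had 69.5 ± 4.51 and 56.5 ± 4.76 CPM in high-fat and control livers (0.30 ± 0.076, edgeR adjusted p = 0.0384), a call that held in 1 of the 8 fits with 1 library left out, that without control replicate 3. It was also lost without a low-count filter (0.29, edgeR adjusted p = 0.0545) and without control replicates 1 and 4 together (0.26, edgeR adjusted p = 0.116). Ncor1, the scaffold of that complex, had 131 ± 3.76 and 120 ± 7.55 CPM (0.12 ± 0.063, edgeR adjusted p = 0.275; 0.21 and 0.0476 with library totals alone). Ncoa1, a coactivator of steroid receptors, had 29.8 ± 0.724 and 27.2 ± 2.23 CPM (edgeR adjusted p = 0.267).

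The genes most like each receptor across the 8 libraries were found by Pearson correlation of log2 CPM among the 12534 genes that averaged 1 CPM or more. All points share the same 8 livers and, for Esrra, Esrrg and Nr3c1, diet groups that did not overlap, so the coefficients are descriptions of these libraries. Closest to Esrra were Nfyb, a subunit of the CCAAT-binding factor NF-Y (r = 0.986), the gene model AC157822.1 (0.985) and the claudin gene Cldn3 (0.980), and all of them were called lower by edgeR (log2 fold change -0.32, -1.48 and -0.55). Closest to Esrrg were Pcnp (0.982), Ccdc34 (0.961) and Sytl4 (0.9555), of which Sytl4 was called higher (0.65, edgeR adjusted p = 0.0385).

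Closest to Nr3c1 were P2ry4, a nucleotide receptor (0.986), Psd3 (0.984) and Tshz2 (0.984), of which P2ry4 was called lower (-0.77, edgeR adjusted p = 0.0370). For Thrb they were Toe1, Epg5 and Cyth1 (0.976, 0.968 and 0.960), and for Thra Xrcc6bp1, Rbm41 and Cyp2r1 (0.946, 0.946 and 0.945), with no call among these 6 genes. Nr3c2 was most like Lmbr1 (0.954), Esr1 most like Zfp407 (0.956) and Esrrb most like Arpc1b (0.951), again without a call.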

How the data were processed

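Read counts per gene from 8 livers, 4 per diet, were deposited by the authors as 1 table of whole-number counts. Per the submitters' processing notes, the tools were TopHat2 2.1.1, Trimmomatic 0.32 and bcl2fastq 2.20.0.422, and the build mm10; per the labels' protocols libraries came from a stranded total RNA kit. How reads were counted (tool, strand, gene annotation) is not given in the sources used.

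Counts were filtered with filterByExpr, which kept 14088 genes with 99.9% of the counts, scaled by TMM and tested with edgeR 4.0.16 (glmQLFit, glmQLFTest; R 4.3.3) on all 8 libraries without covariates, with Benjamini-Hochberg adjustment over all tested genes and a threshold of 0.05. The standard error of a log2 fold change is its size over the root of F. Exon lengths are unions of GENCODE M21 exons matched by gene identifier. Sequences are from a RefSeq promoter table (GRCm38.p6), from which windows of 6 of the 8 receptors were taken. Thra had no entry in it, and chromosome 18, which holds Nr3c1, was left out. Ratios used a pseudocount of 0.5 counts. DESeq2 1.42.0, limma-voom (limma 3.58.1), other scalings and filters, and leaving out each library were alternatives; leaving out control replicates 1 and 4 together was added after seeing the data. On simulated counts for this comparison (13960 genes, 200 changed) edgeR called 87% of the genes given a log2 change of 1 and 97% of those given 2, with 14 false calls. Changes smaller than 1 were not simulated. These shares therefore do not apply to differences of the size seen in the receptors, -0.34 to 0.91.

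Named genes were the 8 receptors, up to 4 called genes per list by smallest p, genes overlapping a receptor with at least 10% of its counts, the 3 most similar genes per receptor, and genes a receptor's role needs. The receptors and lists were chosen with earlier results of these data known. Replicate numbers follow sample order and pair nothing. Values of 2 list members are not reported here, though the list counts include them. The series' design text calls the samples biological replicates.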

Additional observations from a re-analysis of the deposited data

Results flagged for a closer look

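Among 122 groups of 4 livers examined (each named gene and each ratio, by diet), 5 had a liver whose gap to the nearest other was past Dixon's 95% critical value for the group's range, and chance flags about 1 in 20 such groups. Of the receptors, Thrb was flagged in control replicate 1, at 52.6 CPM against 44.5 CPM in the next liver. G6pc stood at 830.1 CPM in high-fat replicate 1, where the next liver had 440.8 CPM. Slc16a10 was low in high-fat replicate 3, at 75.7 CPM with the next at 101 CPM. Cs was low in control replicate 4, at 202 CPM with the next at 234 CPM, and Hsd11b1 high in control replicate 3, at 517 CPM with the next at 402 CPM. No explanation of these livers was tested.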

How the results depend on the processing

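No paired analysis was possible because the labels carry no replicate numbers. With 1 library left out, the count of genes called ran from 293 to 636 higher and from 432 to 843 lower, and that of receptors from 0 to 1 in each direction. The other settings that moved these counts were library totals alone (1111 genes higher and 534 lower; receptors 1 higher, Esrrg, and 0 lower), DESeq2 (860 genes higher; receptors 1 higher, Esrrg) and control libraries 1 and 4 left out together (282 and 461 genes; receptors 0 lower). The split moved with the scaling: with library totals alone most calls were higher, with TMM (529 higher and 825 lower) most were lower. The TMM factors themselves did not overlap between the diets, at 1.019 to 1.067 in high-fat and 0.955 to 0.9765 in control livers. TMM scaling therefore lowers high-fat values against control values for every gene. Why the factors differ was not tested. Esrra was lost with library totals alone (-0.24) and without control replicates 1 and 4 (-0.34), and Esrrg gained with library totals alone (1.001) and DESeq2 (0.91); with 1 library left out they ran from -0.38 to -0.30 and from 0.73 to 1.14. Esr1 turned sign without high-fat replicate 1 or 2 or control replicate 3 or 4 (-0.039, -0.030, -0.078 and -0.058) and without control replicates 1 and 4 (-0.019), within a range of -0.078 to 0.22, and Esrrb without control replicate 2 (0.00051; range -0.30 to 0.00051). The log2 ratio of Nr3c2 to Nr3c1 turned sign without high-fat replicate 2 or 3 or control replicate 1 or 2 (-0.0018, -0.12, -0.029 and -0.014; highest 0.15). Neither the Thrb to Thra nor the Esrrg to Esrra ratio changed sign. Neither passed the threshold in any setting, which 1 ratio alone cannot do after adjustment over 3 ratios.

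List counts moved as follows. With DESeq2, glucocorticoid genes higher were 2, thyroid hormone genes higher 4, estrogen targets lower 1 and ERR targets lower 3. With library totals alone, partner receptors higher were 1 (Rxra) and ERR targets lower 0. With no low-count filter, ERR targets were 1 higher and 2 lower and coregulators 1 higher. Without control replicates 1 and 4, glucocorticoid genes higher were 0, thyroid hormone genes lower 0, estrogen targets higher 0, ERR targets 0 higher and 2 lower and coregulators higher 0. With 1 library left out, glucocorticoid genes ran from 1 to 3 higher and 2 to 6 lower, thyroid hormone genes from 2 to 4 and 0 to 1, estrogen targets from 0 to 1 higher, ERR targets from 0 to 2 and 0 to 3, ligand supply from 2 to 3 and 2 to 5, coregulators from 1 to 2 higher and clock genes from 5 to 7 and 1 to 3.

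Among named genes that were not called, Ctsd, Igfbp4, Me1, Nrip1 and Slc16a10 turned sign in some settings: Ctsd with upper-quartile factors (0.0012) and library totals (0.074), Igfbp4 with library totals (0.00075) and without control replicates 1 and 4 (0.017), Me1 (-0.058) and Slc16a10 (0.043) without those 2, and with 1 library left out Ctsd between -0.089 and 0.034, Me1 between -0.14 and 0.16, Nrip1 between -0.18 and 0.0054 and Slc16a10 between -0.19 and 0.0099. The causes were not tested. Depth limits Esrrb and Esrrg, at 15 to 67 counts a library, more than the other receptors.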
